A study of Mus musculus with 7 samples.

Results

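Ly6a, Aqp3, Spp1, Cited4 and Zfp488 are 5 of the 20294 genes in a light-induction time course of mouse embryonic stem cells. They were chosen by their measured values, as genes with a high value at 0 h and low values in later libraries, so the levels below are a description and carry no test. The cells were of the E14 line, kept in 2i medium, and their messenger RNA was sequenced. All libraries came from cells with a cassette in which GAVPO, a light-switched transcription activator, induces Brn2 together with a red fluorescent protein. The LED gave 300 µW, and the libraries are labelled 0, 2, 4, 6, 14, 24 and 48 h of light. Each time point has 1 library, with no unlit series or cells without the cassette among them, so light, time in culture and Brn2 cannot be told apart. The sources used here do not say whether the cells were a clone. In bulk RNA, fewer cells that express a gene and less RNA per cell cannot be told apart either.

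The 5 genes have separate roles. Ly6a encodes Sca-1, a GPI-anchored surface protein of the Ly6 family that marks haematopoietic stem cells and is inducible by interferon. Aqp3 encodes a membrane channel for water and glycerol, abundant in the basal epidermis and the kidney collecting duct. Spp1 encodes osteopontin, a secreted phosphoprotein of bone matrix and macrophages that binds integrins and Cd44, and in the early mouse embryo the POU factor Oct4 acts on it through an octamer element in its first intron. Cited4 is a transcriptional coactivator of the CITED family, which binds CBP and p300. Zfp488 is a zinc-finger nuclear protein described in the oligodendrocyte lineage, where it acts with Olig2.

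Start-site windows are shown for 3 genes with unlike time courses, Spp1, Aqp3 and Cited4, because the induced factor is a POU protein and their windows can be searched for its letters. The sequences are those of RefSeq on GRCm38.p6, from 250 bases before to 50 bases after the start, 5′ to 3′ on the gene's strand. Capitals mark matches on either strand to the POU octamer (spelled ATGCAAAT), a spaced Brn2 site, the gamma-interferon activated site (spelled TTCNNNGAA), the TATA box (spelled TATAAA), the CCAAT box and the GC box (spelled GGGCGG).
Spp1, upstream start, chr5:104434861-104435160, plus strand: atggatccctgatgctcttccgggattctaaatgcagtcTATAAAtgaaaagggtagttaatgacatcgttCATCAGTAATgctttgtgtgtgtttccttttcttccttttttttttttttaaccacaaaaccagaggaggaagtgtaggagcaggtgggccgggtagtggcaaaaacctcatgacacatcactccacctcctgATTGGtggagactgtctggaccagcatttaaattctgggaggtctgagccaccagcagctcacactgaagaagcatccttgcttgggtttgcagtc
Spp1, downstream start, chr5:104435942-104436241, plus strand: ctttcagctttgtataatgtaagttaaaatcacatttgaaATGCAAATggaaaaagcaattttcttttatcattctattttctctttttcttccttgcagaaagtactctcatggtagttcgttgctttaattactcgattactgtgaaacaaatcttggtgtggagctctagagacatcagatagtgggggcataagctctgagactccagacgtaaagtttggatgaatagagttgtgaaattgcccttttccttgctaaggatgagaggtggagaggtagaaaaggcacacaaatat
Aqp3, chr4:41098134-41098433, minus strand: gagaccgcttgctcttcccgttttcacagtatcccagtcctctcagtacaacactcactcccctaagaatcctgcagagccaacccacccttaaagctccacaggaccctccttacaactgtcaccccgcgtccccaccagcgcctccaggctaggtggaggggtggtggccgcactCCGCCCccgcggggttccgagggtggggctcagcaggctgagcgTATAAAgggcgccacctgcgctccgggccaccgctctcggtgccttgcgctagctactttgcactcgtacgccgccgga
Cited4, chr4:120666313-120666612, plus strand: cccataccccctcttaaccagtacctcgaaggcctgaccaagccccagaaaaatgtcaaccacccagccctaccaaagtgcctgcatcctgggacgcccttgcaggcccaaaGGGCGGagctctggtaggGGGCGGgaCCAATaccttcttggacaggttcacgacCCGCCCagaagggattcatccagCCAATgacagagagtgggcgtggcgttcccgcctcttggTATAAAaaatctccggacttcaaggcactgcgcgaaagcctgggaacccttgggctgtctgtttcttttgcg
The downstream Spp1 window holds the octamer 210 bases before its start. That window lies past the upstream start, inside the span of the gene. Whether this octamer is the first-intron element named above was not tested. The upstream window holds a spaced Brn2 site 179 bases before its start. It also holds a TATA box 211 bases and a CCAAT box 46 bases before that start. Among 32851 such windows, 1.74% hold the octamer and 2.87% the spaced site. The Aqp3, Cited4 and Zfp488 windows hold neither. A TATA box, present in 13.6% of windows, lies 29 bases before the Aqp3 start and 22 bases before the Cited4 start. The Cited4 window also holds 3 GC boxes and 2 CCAAT boxes, that of Aqp3 holds 1 GC box and that of Zfp488 holds 2. GC boxes are in 35.7% of windows and CCAAT boxes in 37.4%. The gamma-interferon activated site, in 8.30% of windows, was in none of those of these genes. No start-site sequence of Ly6a was used here. A match is a description of letters, not a bound site.

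The library totals implied by the values ran from 7011100 reads at 4 h to 16083900 at 48 h. Each value scales with reads divided by the genomic span of the transcript and by the library total, so levels are compared here per length of span. No header names the unit. Pou3f2, the gene that encodes Brn2, had 77.0 before light. Its values at 2, 4, 6, 14, 24 and 48 h were 36.9, 47.3, 96.2, 119, 41.3 and 7.19. They were higher at each step from 2 to 14 h, where the value was 155% of that at 0 h, and lower at 24 and 48 h. Whether reads of the cassette are among them was not tested. Of 15 embryonic stem cell markers all 15 had a mean of at least 1, with Pou5f1 between 154 and 235 and Dppa5a between 491 and 1200.

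The 5 genes did not share a time course. Ly6a, Spp1, Cited4 and Zfp488 were below their 0 h value in all 6 later libraries, Cited4 only slightly at 48 h. A loss of at least 2-fold in all 6, on values with 1 added, held for Ly6a and Zfp488 alone. Aqp3 was higher at 2, 4 and 6 h than at 0 h, and low from 14 h on. Cited4 was at 7.44% of its 0 h value at 2 h and at 97.7% of it at 48 h. This return was only partial with the GC trend removed, to a log2 ratio to 0 h of -1.08 at 48 h. Of the genes that reached 5 in any library, 410 of 3186 (12.9%) were highest at 0 h, and 4 of the 5 were among them.

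**Figure D1:**
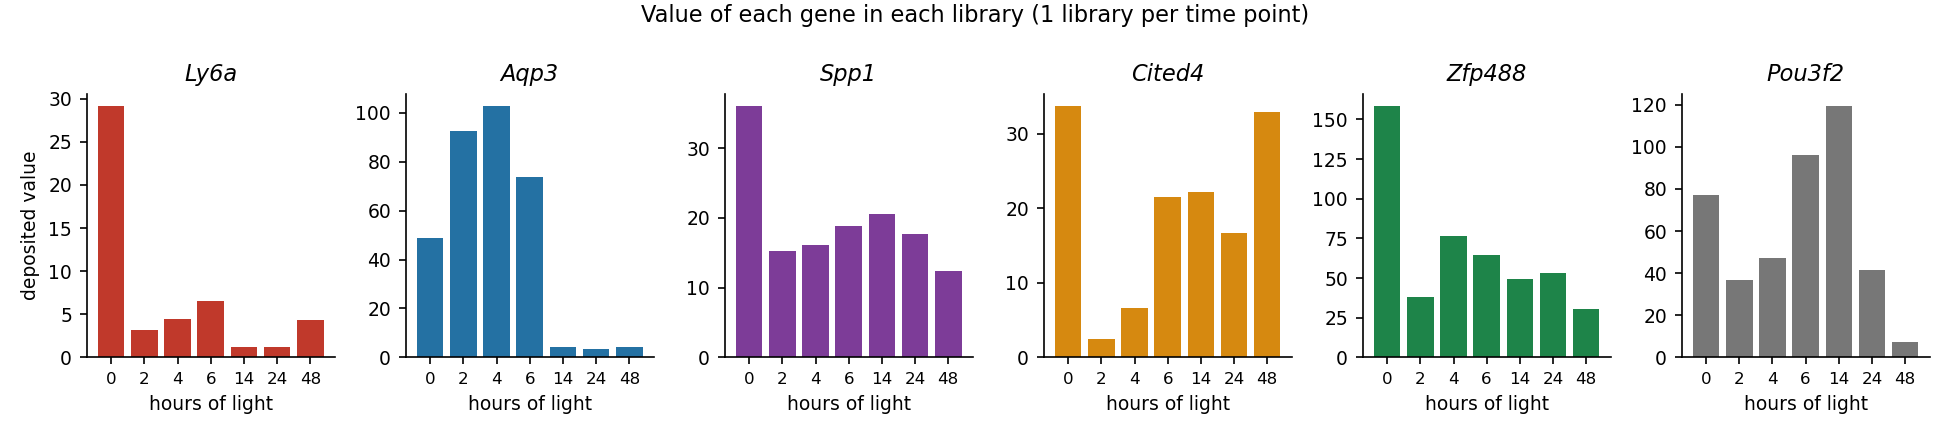
Deposited value (y axis, linear, from 0) of Ly6a, Aqp3, Spp1, Cited4, Zfp488 and, for comparison, Pou3f2 in each of the 7 libraries (x axis, hours of light), with 1 bar per library and no error because no time point has a replicate. Ly6a, Spp1, Cited4 and Zfp488 stand highest at 0 h and Aqp3 stands highest at 4 h (103). Cited4 returns from 2.51 at 2 h to 32.9 at 48 h.

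Ly6a, on chromosome 15 (GRCm38.p6 74994877 to 74998031), was low in all 6 later libraries. Its values at 0, 2, 4 and 6 h were 29.1, 3.12, 4.50 and 6.53, and those at 14, 24 and 48 h were 1.15, 1.21 and 4.32. The 0 h library lay far above the other 6, and 14 and 24 h were lowest. The 0 h library stood 4.46-fold above the highest later library, at 6 h, and 25.4-fold above the lowest, at 14 h. About 1363 reads lay behind the 0 h value (exact 95% Poisson interval 1290 to 1440), about 33 behind the 14 h value (22.7 to 46.3) and about 38 behind the 24 h value (26.9 to 52.2). The intervals cover counting error only. All 6 transcript rows of Ly6a in the table gave the same picture, with the 0 h value between 4.46-fold and 5.17-fold above the highest later one. These rows are overlapping transcripts of 1 gene and not replicates. Of 3186 genes, Ly6a was the 1 gene (0.0314%) at least 4-fold above every later library at 0 h, on values with 1 added, and that place is the value it was chosen on. With the GC trend of each library removed, or with 5 added, it fell short of 4-fold and no gene passed.

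Most of the Ly6 family was too low to be tested. Of 30 other family members in the table, 26 were under 1 in every library and 3 of these (Lypd5, Lypd8 and Slurp1) were at 0 throughout. Ly6e and Ly6g6e were the 2 members tested for a trend with time, and both were highest at 48 h. Ly6e, a relative inducible by interferon, had 3.81, 2.04 and 11.2 at 0, 14 and 48 h (fitted log2 change from 0 to 48 h 0.91 ± 0.53 SE, limma adjusted p = 0.336). Ly6g6e had 4.29, 2.18 and 20.3 in the same libraries (1.21 ± 0.78 SE, limma adjusted p = 0.374). Ly6i, a neighbour of close sequence, was highest at 0 h, at 1.30 against 0.525 or less later, and Ly6f and Ly6c1 were 0.899 and 0.334 at 0 h against at most 0.402 and 0.191. Reads of such close copies may be split between them by the authors' counting, so these low values are uncertain. The row used for Ly6a was matched by its RefSeq accession. The authors' name column is empty there, and their description column names another gene.

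Because Ly6a and Spp1 are also abundant in blood cells, macrophages and fibroblasts, the markers of those cells are given beside them. All 13 macrophage markers were under 1 in every library, with Adgre1 at 0 throughout and a summed value of 1.02 at 0 h and between 0.430 and 0.979 later. The 15 haematopoietic and endothelial markers summed to 3.33 at 0 h and to between 2.51 and 7.35 later, with Emcn and Hbb-bh1 at 0 in all libraries. The 14 fibroblast and feeder markers summed to 2.54 at 0 h, the lowest of the 7 libraries, and to between 3.05 and 8.76 later. Most of this sum at 0 and 14 h was Twist1, at 1.74 and 8.08, so it is not the course of the list. Of the 14 markers, 11 were under 1 in every library. Of the 3 sums the macrophage one alone was highest at 0 h, and its most abundant member, Cd14, was 0.466 there. The part of such cells in the values of Ly6a and Spp1 was not tested. Interferon-stimulated genes as a whole summed to 238 at 0 h and to between 192 and 626 later. Of 12 tested, 0 rose and 0 fell, beside 0.296% and 0.0624% of all genes tested. Their median fitted change was 0.61 against 0.006 over all genes tested. The lowest adjusted p among them was that of Bst2, a membrane tether of viruses, which was 1.25 at 0 h and 3.12 at 48 h (limma adjusted p = 0.069).

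Aqp3, on chromosome 4 (41092724 to 41098183), was lost later than the others and after a higher level. Its values at 0, 2, 4 and 6 h were 48.8, 92.5, 103 and 73.9, and those at 14, 24 and 48 h were 4.25, 3.26 and 4.31. The lowest of the first 4 libraries had 48.8 and the highest of the last 3 had 4.31. This split follows the values themselves, and the share of all genes split in the same way was not counted. Behind the values at 0, 6, 14 and 24 h lay about 3949, 5501, 210 and 176 reads. The 4 h library was 2.11 times the 0 h one, past 2-fold also with 1 added (log2 ratio 1.06), as were 58 of 2606 genes (2.23%). That step fell short of 2-fold with quantile normalization (log2 ratio 0.82), with equal totals of values (0.84) and with the GC trend removed (0.98). At 14, 24 and 48 h the log2 ratios to 0 h were -3.25, -3.55 and -3.23, which gave Aqp3 the place 2, 2 and 3 from the lowest ratio in those libraries. Its gene family gave no comparable level: 10 of the 11 other aquaporins were under 1 in every library, Aqp12 at 0 throughout, and 0 could be tested for a trend. The highest of them by mean, Aqp11, lay between 0.321 and 0.523, and Aqp7, a glycerol channel like Aqp3, between 0.153 and 0.424. Of the 15 markers of keratinocytes and epithelia, in which Aqp3 is abundant, 8 were under 1 in every library. Of 6 tested, 0 rose and 0 fell (median fitted change 0.016), beside 0.296% and 0.0624% of all genes tested. E-cadherin (Cdh1) lay between 9.20 and 13.5 and Sfn at 20.9 or less. Perp, a desmosomal protein and the tested member of lowest adjusted p, had 2.39, 4.36, 0.357 and 1.24 at 0, 6, 14 and 48 h (limma adjusted p = 0.378). Trophectoderm markers, a further cell type with Aqp3, gave 0 calls among 7 tested. Of these, 2 had a positive and 5 a negative fitted change (median -0.16). Id2, the tested marker of lowest adjusted p and 1 of the 2, was 1.17 at 0 h and 8.43 at 48 h (limma adjusted p = 0.131).

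**Figure D2:**
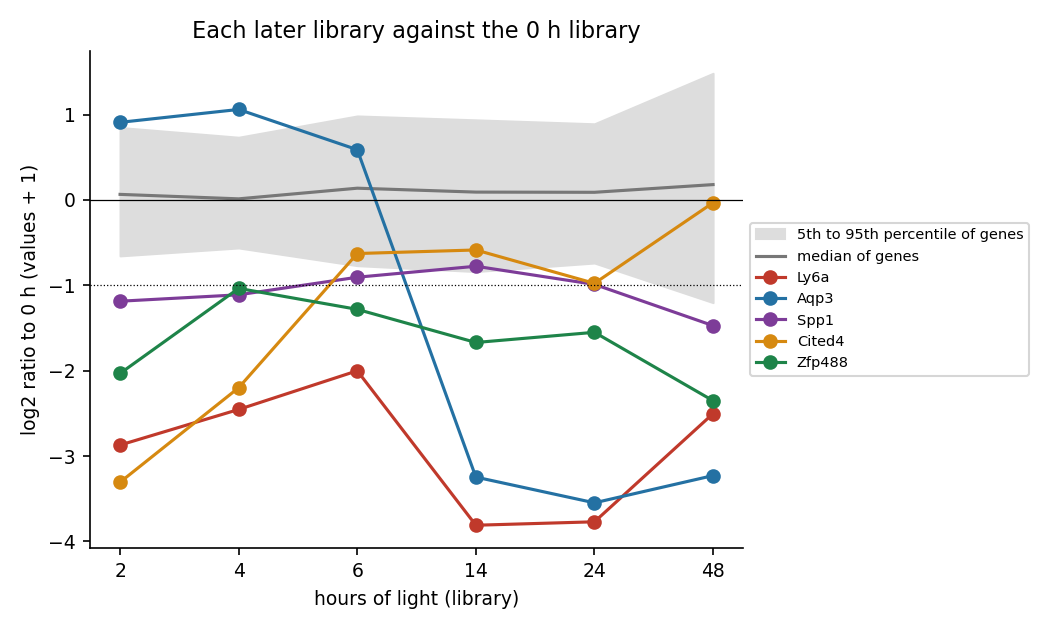
Log2 ratio of each later library to the 0 h library with 1 added to the values (y axis) for the 5 genes, by library (x axis, hours of light), over the median and the 5th to 95th percentile of all genes that reach 5 in either library. The 6 ratios share the 0 h library. Ly6a and Zfp488 lie at or below a 2-fold loss (dotted line) in all 6 libraries, Aqp3 lies above 0 until 6 h and under -3 from 14 h, and Cited4 goes from -3.31 at 2 h to -0.03 at 48 h.

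Spp1, on chromosome 5 (104435111 to 104441053), stood lower in every later library. Its values at 0, 2, 4 and 6 h were 36.1, 15.3, 16.2 and 18.8, and those at 14, 24 and 48 h were 20.6, 17.7 and 12.4. The later libraries lay close together, with 48 h lowest. The 0 h library stood 1.75-fold above the highest later one, at 14 h, and 2.92-fold above the lowest, at 48 h. About 2593 reads lay behind the 0 h value and 550 behind the 4 h value, with intervals of 2490 to 2690 and 505 to 598. All 5 transcript rows were highest at 0 h, by 1.72-fold or more over the highest later library. At 48 h the log2 ratio to 0 h of -1.47 became -0.86 with the GC trend removed, and so fell short of 2-fold. At 6 and 14 h the ratios of -0.91 and -0.78 became -0.55 and -0.50. Those at 2, 4 and 24 h changed little (-1.12, -1.10 and -0.99 with the trend removed). The predicted gene Gm42793 overlaps Spp1 on the same strand, so reads of the pair cannot be told apart. Its receptors and gene relatives were at low values: 11 of 14 were under 1 in every library. Of the 2 tested, Itgb1, the beta-1 integrin chain, had 4.38, 6.23 and 1.72 at 0, 14 and 48 h (limma adjusted p = 0.860). Itga5, the fibronectin receptor chain, had 1.78, 3.49 and 1.09 at 0, 2 and 48 h (limma adjusted p = 0.211). Itgav, which pairs with several beta chains to bind osteopontin, was 1.47 at 0 h and between 0.702 and 1.11 later. Osteoblast markers were under 1 in 9 of 10 members. Alpl, the alkaline phosphatase also expressed by embryonic stem cells, was the exception, at 2.64 at 0 h and 9.43 at 48 h (limma adjusted p = 0.496).

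Cited4, a short gene on chromosome 4 (120666563 to 120667820), was lowest at 2 h and near its 0 h value at 48 h. Its values at 0, 2, 4 and 6 h were 33.7, 2.51, 6.55 and 21.4, and those at 14, 24 and 48 h were 22.1, 16.6 and 32.9. The 2 h library stood at 7.44% of the 0 h one and the 48 h library at 97.7%. Reads behind these values were few at first, about 24 at 2 h (interval 15.4 to 35.7) and 57 at 4 h (43.2 to 73.9), against 624 at 0 h and 661 at 48 h. At 2 h its log2 ratio to 0 h, -3.31, was the lowest of 2667 genes, and at 48 h its ratio, -0.03, was under the median of all genes, 0.18. The return was only partial with the GC trend removed, from -3.52 at 2 h to -1.08 at 48 h. The Cited4 transcript has 66.4% GC, the highest of the 5 genes, and with the GC trend of each library removed the ratios at 6, 14, 24 and 48 h were -1.41, -1.37, -1.22 and -1.08 in place of -0.63, -0.59, -0.98 and -0.03. On that scale Cited4 stayed at or under a 2-fold loss in all later libraries, while the low at 2 h (-3.52) and 4 h (-2.38) stayed. Whether the deposited or the corrected values are nearer to the RNA level was not tested.

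**Figure D3:**
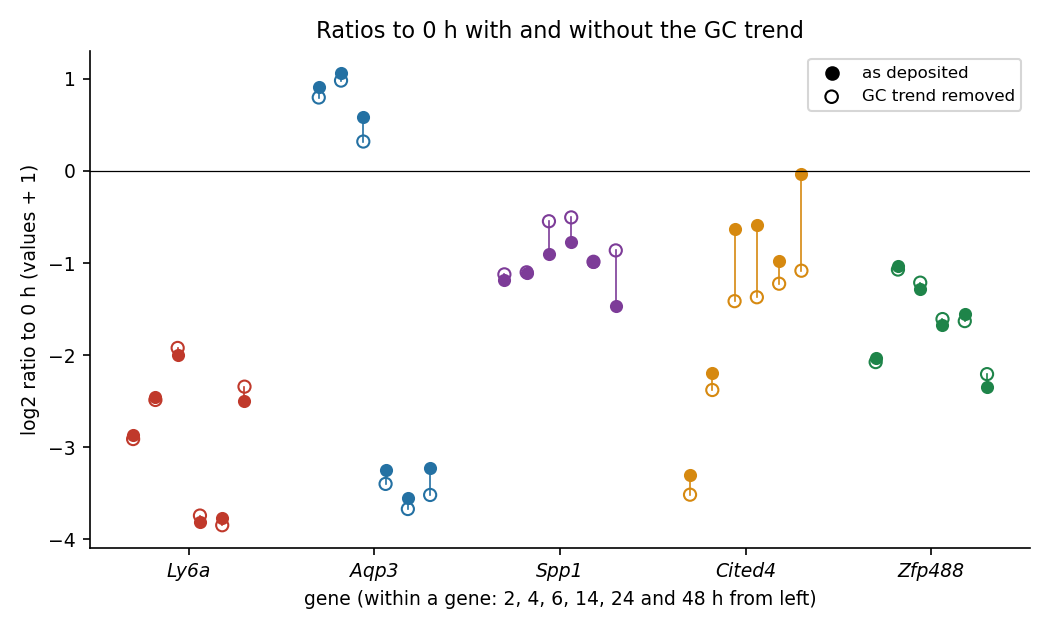
Log2 ratio of each later library to 0 h (y axis, 1 added) for the 5 genes (x axis; within a gene the 2, 4, 6, 14, 24 and 48 h libraries from left to right), as deposited (filled) and with each library's trend over transcript GC content removed (open). The largest shifts are those of Cited4 at 6, 14 and 48 h, where 48 h moves from -0.03 to -1.08.

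Of 8 other genes of the CITED and partner list, 5 were tested, of which 0 rose and 0 fell (median fitted change -0.18). Over all 6411 genes tested 0.296% rose and 0.0624% fell, so nothing is read from the 0 calls. Cited2, an abundant relative of Cited4, lay between 12.9 and 25.1, and Cited1 between 0.138 and 0.549. The coactivators Ep300 and Crebbp lay between 2.79 and 5.26 and between 1.01 and 1.70. Hif1a, the hypoxia factor whose binding to p300 CITED proteins can oppose, was 8.89 at 0 h and 3.91 at 48 h (limma adjusted p = 0.276), and Tfap2c, an AP-2 factor that CITED proteins coactivate, lay between 1.74 and 5.73.

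Zfp488, on chromosome 14 (33967070 to 33979034), was the most abundant of the 5 genes at 0 h per length of span, and it was lower in each later library. Its values at 0, 2, 4 and 6 h were 158, 38.0, 76.8 and 64.6, and those at 14, 24 and 48 h were 49.1, 53.5 and 30.2. The 0 h library stood 2.06-fold above the highest later one, at 4 h, and 5.24-fold above the lowest, at 48 h. Reads were many, about 27472 at 0 h and at least 3373 in every later library, so counting error is small beside these differences. The log2 ratios to 0 h, from -2.35 at 48 h to -1.04 at 4 h, were -2.21 and -1.07 with the GC trend removed. At 4 h the loss was just short of 2-fold with median-of-ratios size factors (-0.98). Genes of the oligodendrocyte lineage in which Zfp488 is described were mostly low: 12 of 15 were under 1 in every library. Of the 3 tested 0 rose and 0 fell, beside 0.296% and 0.0624% of all genes tested. Cnp, a myelin enzyme, was 0.771 at 0 h and 2.15 at 48 h (limma adjusted p = 0.091, and 0.0278 with linear hours), Nkx2-2 lay between 0.382 and 1.86, and Olig1 at or under 0.774.

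In the 2, 4 and 6 h libraries, 4, 4 and 2 of the 5 genes were at least 2-fold below 0 h on values with 1 added, beside 1.87%, 0.652% and 1.56% of all genes. In the 14, 24 and 48 h libraries the counts were 3, 3 and 4, beside 3.34%, 2.61% and 8.19%. Their median log2 ratios were -2.03, -1.11, -0.91, -1.67, -1.55 and -2.35 in that order, against medians of all genes from 0.01 to 0.18. These are the values the genes were chosen on, and nothing is read from the counts. The 48 h library had the most genes below 0 h. The genes were not the same at each time: at 2 h Cited4, Ly6a, Zfp488 and Spp1 were 2-fold below, and at 48 h Aqp3, Ly6a, Zfp488 and Spp1. Only Ly6a and Zfp488 were at least 2-fold below in all 6 libraries.

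Ranked by the log2 difference between 0 h and the highest later library, Ly6a took place 1, Zfp488 5, Spp1 9, Cited4 370 and Aqp3 2732 of 3186 genes. Against the median of the later libraries, a measure added after the values were seen, their places were 1, 4, 27, 65 and 8 in the same order. The genes ranked nearest to them by the first measure were Calcoco2, an autophagy receptor (9.90 at 0 h, 2.74 or less later), and Zfp277, a zinc-finger protein (8.62 at 0 h, 3.16 or less later). D1Pas1, a DEAD-box helicase retrogene of the testis, followed (25.2 at 0 h and at most 11.4 later). Olfr613, Lonrf1 and Arih2 took places 6, 7 and 8, and Klhl9 took place 12. Just below Spp1 stood Tlr2, a receptor of innate immunity (5.75 at 0 h, 3.09 or less later), Mcidas, a regulator of multiciliated cells (6.87 and at most 3.86), and Hesx1, a homeobox repressor of anterior neural development (7.53 and at most 4.30). Ddit3, the stress factor CHOP, took place 3 by the second measure. Its values at 0, 2, 4 and 6 h were 14.6, 6.57, 11.9 and 14.4, and those at 14, 24 and 48 h were 1.80, 1.59 and 1.78, so that its low libraries were those of Aqp3.

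Among themselves the 5 genes were most alike in Spp1 and Zfp488, with a Pearson correlation of 0.89 over the 7 libraries on log2 values. Ly6a and Zfp488 had 0.74, and Aqp3 and Cited4 had -0.54. Over 7 libraries of 1 series that share their 0 h point such values are a description. Of genes with a mean of at least 5, Olfr613, an olfactory receptor by its accession and named Olfr614 in the authors' name column, had the profile nearest to Zfp488 (r = 0.99) and had 47.4, 13.4, 22.8 and 12.1 at 0, 2, 4 and 48 h. Prc1, which bundles microtubules in cytokinesis (8.01 at 0 h and 4.16 at 48 h, r = 0.99), and Rnf113a2 (16.2 and 6.16, r = 0.99) were nearest to Spp1. Pramel12 (15.1 and 7.01, r = 0.96) was nearest to Ly6a. Mylpf, a muscle myosin light chain, was nearest to Aqp3 (r = 0.97) and had 49.1, 70.6 and 30.6 at 0, 2 and 14 h. Arhgef39 (7.78, 4.33 and 8.72 at 0, 2 and 48 h, r = 0.96) and Gstp1, a glutathione transferase (87.7, 37.3 and 88.2, r = 0.95), were among the 3 nearest to Cited4. Nearest to the mean of the 5 standardized profiles were Olfr613, Mesd, Pramel12 and Atf4, the factor of the amino acid and stress response (236 at 0 h and between 114 and 173 later, r = 0.95).

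**Figure D4:**
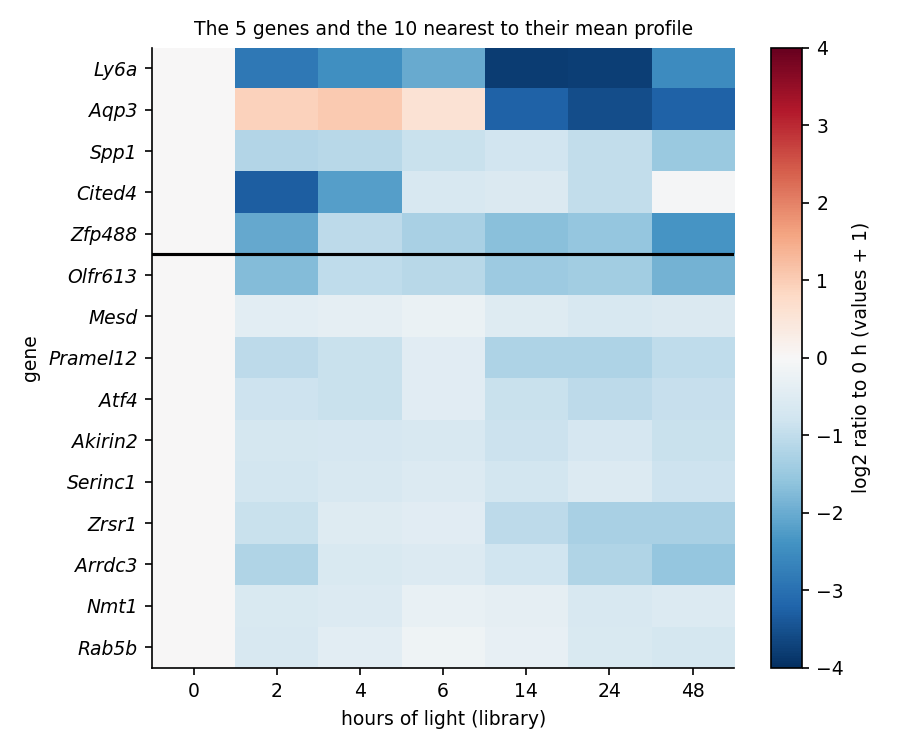
Log2 ratio to the 0 h library (colour, 1 added; blue is lower) in each library (x axis, hours of light) for the 5 genes (above the line) and the 10 genes with the highest correlation to their mean profile (below the line). All 10 lie below 0 h in all 6 later libraries, and none has the early increase of Aqp3.

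Other lists were tested for a trend with the labelled time and gave no call. In the limma test 19 of 6411 genes rose (0.296%) and 4 fell (0.0624%) over the 7 libraries, and of 60 tested genes of the 15 lists (members left out) 0 rose and 0 fell, with 12 of the 60 at an unadjusted p under 0.05. Over all genes tested, 1381 (21.5%) had such a p, so the share among the list genes is near the background. The p-values rest on the spread of 7 single libraries about a line. With limma-voom on recovered reads, 8 of 141 list genes rose and 3 fell, beside 299 (2.22%) and 109 (0.808%) of all 13497 genes tested. The gene of lowest adjusted p in a list was named after the values were seen. Stra8, a retinoic acid target of meiosis with a mean under 1, was 1.99 at 0 h and 0.564 or less later, and limma-voom called it (chosen after its values were seen). In the retinoic acid list of 5 tested genes, Crabp2, a retinoic acid-binding protein, was 0.775 at 0 h and 11.1 at 48 h (limma adjusted p = 0.069). It passed the test under 3 of 17 alternatives: linear hours (limma adjusted p = 0.00148), limma-voom (adjusted p = 0.0207) and without the 14 h library. Its adjusted p ranged from 0.00148 to 0.553 over them. Of 20 primitive endoderm markers, 15 were under 1 in every library, among them Gata4, Gata6 and Sox17. Among the 4 tested, 3 had a positive and 1 a negative fitted change. Foxa2, a forkhead factor and the tested marker of lowest adjusted p, was 0.115 at 0 h and 4.62 at 48 h (limma adjusted p = 0.066). It passed under 4 of 15 alternatives: linear hours (limma adjusted p = 7.14e-05), limma-voom (adjusted p = 0.00595), a pseudocount of 0.1 and without the 0 h library. Its adjusted p ranged from 7.14e-05 to 0.207. Twist1, the 1 fibroblast marker tested, had 1.74, 8.08 and 2.29 at 0, 14 and 48 h (limma adjusted p = 0.352). Gata2, of the 2 haematopoietic markers tested, had 0.410, 3.56 and 0.585 at 0, 2 and 48 h (limma adjusted p = 0.459, and 0.0437 without the 0 h library). Of the 15 stem cell markers the lowest adjusted p was that of Utf1, which was 28.7 at 0 h and 364 at 48 h (limma adjusted p = 0.073). Utf1 passed under 1 of 18 alternatives, limma-voom (adjusted p = 0.0312), and its adjusted p ranged from 0.0312 to 0.571.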

How the data were processed

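The labels' protocols name an RNeasy kit and a Lexogen SENSE kit, and the submitters' processing notes name Bowtie2 (no version) and the build mm9. Counting, strand and unit are not known from these sources. The authors deposited 1 value per RefSeq transcript and library. From these deposited values, reads were recovered with the GRCm38 span and 1 factor per library, and 81.0% to 82.7% of values of 2 to 20 reads lay within 0.1 of a whole read, so reads are approximate. Of 30673 rows, 3320 start-site rows were at 0 throughout and 26930 transcripts matched a symbol by accession. The row of highest mean stood for a gene.

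The members and gene lists were chosen with earlier results of these data known, and the motifs after the files were seen. Trends were fitted with limma 3.58.1 in R 4.3.3 (lmFit, eBayes with a mean-variance trend). The response was log2 of value plus 1, the predictor was log2 of hours plus 1, and genes of mean at least 1 entered. This left 5 residual degrees of freedom, with Benjamini-Hochberg adjustment over all 6411 genes. The procedure was checked on data simulated with independent noise, equal for all genes, and no shift shared by a library. That check does not cover GC or scaling shifts between libraries. The plan foresaw either counts or normalized values; the limma test fits the latter. Fold changes with 1 added understate low genes. Genes named by rule were the members, Pou3f2, up to 5 abundant genes of each list, the 10 others of highest 0 h ratio and the nearest profiles, without predicted genes, and not all are printed. Alternatives were 3 scalings (that to equal totals was added after seeing the data), other pseudocounts and filters, summed rows, GC trend removal, linear hours, limma-voom on reads, and each library left out.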

Additional observations from a re-analysis of the deposited data

How the results depend on the processing

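The 30 ratios of a later library to 0 h were recomputed under the alternatives that can move them, 192 values in all, which leaves out other filters, libraries outside the ratio and summed rows of genes with 1 row. In 108 of them the shift was within the counting error of the reads behind the ratio, in 84 it was beyond it, and 0 changed sign. The median log2 ratio of 0 h to the highest later library over the 5 genes was 0.78. It was 0.91 with quantile normalization, 1.07 with the GC trend removed and 0.90 with equal totals, and between 0.78 and 0.905 with a library left out. The 1 gene at least 4-fold above every later library (Ly6a) became 0 with a pseudocount of 5 and with the GC trend removed. The trend test called 23 genes, 19 up and 4 down. With a pseudocount of 0.1 it called 43 (36 up, 7 down), and with a pseudocount of 5, no filter on low values or the GC trend removed it called 0. The lowest adjusted p was then 0.0641, 0.207 and 0.0564, so the first and last lay close to the threshold, and no other spline for the GC trend was run. Equal totals gave 39 calls (19 down), linear hours 190 (162 and 28) and limma-voom on reads 408 (299 and 109), and 5 times the minimum value left 1 down. Leaving out a library gave 1 to 79 calls (1 to 54 up, 0 to 25 down), with 79 without 0 h, 9 without 2 h, 1 without 4 h, 1 without 24 h and 2 without 48 h. The 0 calls among list genes became 1 with a pseudocount of 0.1 (Foxa2), 1 with equal totals (Dppa5a), 6 with linear hours and 11 with limma-voom, and 0 to 3 with a library left out. The fitted change of Alpl reversed to -0.33 without the 48 h library. The count of genes at least 2-fold below 0 h was 50 at 2 h, where it was 76 with a pseudocount of 0.1, 15 with one of 5, 82 with no filter, 15 with 5 times the minimum and 86 with equal totals. At 4 h the count of 17 was 3 with a pseudocount of 5, 7 with 5 times the minimum and 41 with equal totals. At 6 h the count of 43 was 85 with quantile normalization, 71 and 8 with pseudocounts of 0.1 and 5, 12 with 5 times the minimum, 20 with the GC trend removed and 171 with equal totals. At 14 h the count of 92 was 23 with a pseudocount of 5 and 21 with 5 times the minimum. At 24 h the count of 70 was 21 with a pseudocount of 5, 112 with no filter and 16 with 5 times the minimum. At 48 h the count of 240 was 69 with a pseudocount of 5, 47 with 5 times the minimum, 121 with the GC trend removed and 444 with equal totals. The cause of these shifts was not tested. No paired analysis was possible because each time point has 1 library and the labels give no replicate numbers. Depth limits Cited4 at 2 h (24 reads) and Ly6a at 14 h (33 reads) most.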
